A study of Mus musculus with 36 samples.

Results

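Purkinje cell genes were followed across the cerebellum and the forebrain of 3 lines of mutant mice. The list holds 30 genes, named by symbol, that mark Purkinje cells or work in them, with Kit carried by interneurons around them. They come out of 18194 genes that have a probe set with 1 gene symbol on the array. Each gene was read from the probe set with the highest mean over the cerebellum arrays. All 30 had a probe set and 29 passed the filter on dim probe sets in the cerebellum. The exception was En1, a homeodomain factor of hindbrain development, which lay between 12.1 and 30.7 on the +/+ cerebellum arrays. Lhx1, Lhx5, Ppp1r17, Plcb3, Ebf2 and En1 did not pass in the forebrain, which left 24.

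The labels call the lines stg, tg and lh. These symbols are read here as stargazer, tottering and lethargic, mouse mutants of the calcium channel genes Cacng2, Cacna1a and Cacnb4, although the full names are not in the labels. Each line has a -/- and a +/+ group in each tissue, 12 groups of 3 arrays and 36 arrays in all, hybridised with total RNA. The labels describe both genotypes as mutant mice and give no age, sex, strain or treatment other than sacrifice. Whether the 3 arrays of a group stand for 3 animals, and whether forebrain and cerebellum were taken from shared animals, is not stated, so p-values measure the spread between these samples, which may be technical.

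Purkinje cells are the large inhibitory neurons that carry the whole output of the cerebellar cortex to the deep nuclei. Parallel fibre input reaches them through AMPA receptors and through metabotropic glutamate receptors that act by Gq and phospholipase C to form inositol trisphosphate and release calcium from stores. All 3 mutated genes encode channel subunits or related proteins that these cells use, and mice of all 3 lines are known for ataxia and absence seizures.

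Values are linear signal intensities, and the mean of each of the 36 arrays, trimmed by 2% at each end, is 150. Changes are differences of log2(signal + 2.98), -/- minus +/+, from limma, and a gene is called, or said to have risen or fallen, at a Benjamini-Hochberg adjusted p under 0.05 over all 27022 probe sets tested. The correlation between cerebellum arrays lay between 0.939 and 0.980. The 3' to 5' difference of the Actb control probe sets, a sign of RNA quality, overlapped between -/- and +/+ cerebellum in every line. In +/+ mice Gabra6, a receptor subunit of cerebellar granule cells, had a mean of 7889 in the cerebellum and 33.1 in the forebrain, and Neurod6, a factor of cortical neurons, 42.5 and 429, in the order the tissue labels give. In bulk tissue, fewer cells of a type and less RNA per cell cannot be told apart.

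The adaptor Dab1 fell in the cerebellum of stg mutants. It is the intracellular adaptor of reelin signalling, on which Purkinje cells depend for their migration during development. Its probe set, 1435578_s_at, read 244, 238 and 240.2 on the 3 stg-/- arrays and 365, 379 and 383 on the 3 stg+/+ arrays. The stg-/- arrays lay close together and all below the stg+/+ arrays. The log2 change was -0.64 (SE 0.10), a fold of 0.644 (limma adjusted p = 0.00185, or 0.000563 with the replicate number as a block). Without the block, which leaves the pairing of the stg arrays unused, Dab1 was the 1 member of 29 called in stg cerebellum, and with it 12 were. Without the block 1.3% of all probe sets tested were called in stg, 0.525% higher and 0.777% lower.

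In tg cerebellum Dab1 read 429.9, 364 and 364 on the -/- arrays and 385, 381 and 348 on the +/+ arrays, which overlapped, with a log2 change of 0.05 (SE 0.10). In lh cerebellum it read 319, 361 and 383 on the -/- arrays and 397, 443 and 473 on the +/+ arrays. Here the groups did not overlap and the -/- arrays were lower, but the change of -0.30 (SE 0.10) did not pass (limma adjusted p = 0.372). Over the mean of the 3 lines Dab1 fell by 0.30 on the log2 scale (SE 0.06, limma adjusted p = 0.00959) and was again the 1 member called, against 1.97% of all probe sets (1.04% higher and 0.933% lower). The moderated F test of a difference among lines gave Dab1 the lowest adjusted p of the members, 0.103, above the threshold. It called none of the 29, against 0.315% of all probe sets. An unadjusted p under 0.05 was seen in 8 of the 29 and in 2087 of the 27022 probe sets.

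In the stg forebrain the Dab1 change was -0.02 (SE 0.10) and did not pass. The stg-/- arrays read 335, 342 and 319 and the stg+/+ arrays 337, 336 and 334, and they overlapped. The difference between the tissues' effects, -0.62 (SE 0.13), passed (limma adjusted p = 0.0246), and Dab1 was the 1 member called in this test, against 0.248% of all probe sets. That call was lost in 9 of the 12 fits that left out 1 stg array, with adjusted p between 0.0397 and 0.071 over the 12. Forebrain arrays stg+/+ 1 and 2 read high for the pituitary hormone transcripts Gh (2603 and 2102) and Prl (2546 and 2086). The other stg forebrain arrays, of both genotypes, read at most 78.4 for Gh and 35.5 for Prl. What part this has in the tissue difference was not tested. The tg and lh tests called no member, against 0.0259% and 0.0111% of all probe sets. At an unadjusted p under 0.05 were 1 and 3 members, and 949 and 1318 of the 27022 probe sets.

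All 5 Dab1 probe sets had a negative change in stg cerebellum. The 4 others lay between -0.53 and -0.40 and none of them passed without the block. With it 1 of the 4 did, 1427308_at (limma adjusted p = 0.046). The cerebellar call held in each of the 18 fits that left out 1 cerebellum array (adjusted p between 0.00125 and 0.0104). Prl, prolactin, a pituitary hormone, was highest on stg+/+ 1, stg+/+ 2 and lh+/+ 3, at 108, 247 and 297, with no other cerebellum array over 56.8. Gh, growth hormone, reached 230.5 on stg+/+ 2 and 126 on stg-/- 3. Without the 3 arrays with higher Prl the Dab1 change in stg was -0.67 (limma adjusted p = 0.0581), and without stg-/- 3 as well it was -0.66 (0.0793). Both fits leave stg+/+ a lone array given the spread of the rest, and no member was called in stg or over the mean of the 3 lines.

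**Figure D1:**
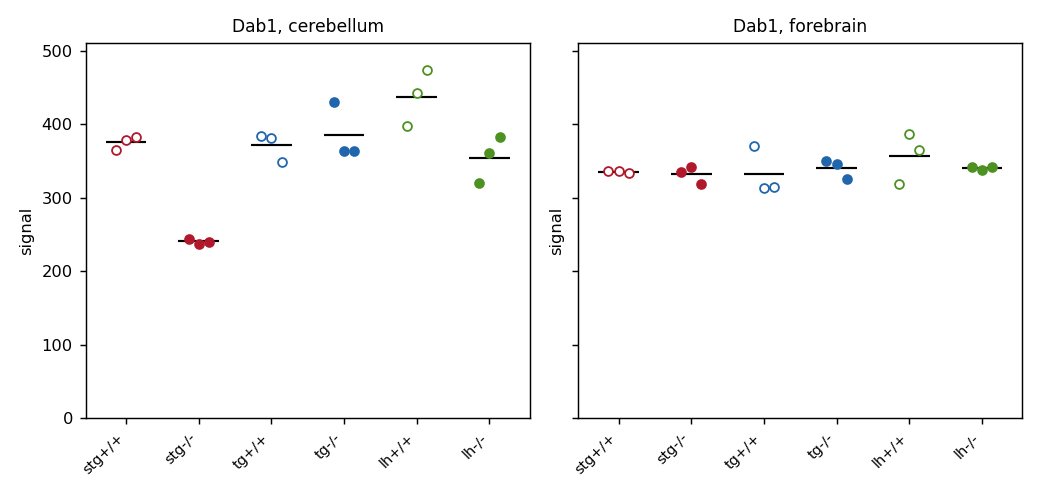
Signal of Dab1 (linear, vertical axis from 0) on each array of the 6 groups, in the cerebellum on the left and the forebrain on the right, with open points for +/+, filled points for -/- and a bar at the mean of 3 arrays. The stg-/- cerebellum arrays, 244, 238 and 240.2, sit below every other cerebellum array, and in the forebrain the stg groups overlap.

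The other members mostly had small positive changes in stg cerebellum. Of the 29, 23 lay above 0 and the median was 0.22, beside 0.013 and 52.3% above 0 for all probe sets tested. On the single arrays, each set against the stg+/+ mean, the members' median was 0.236, 0.182 and 0.191 on the stg-/- arrays. On the stg+/+ arrays it was 0.011, 0.046 and -0.038, so the -/- arrays were all higher. The stg+/+ mean comes from these same arrays, which holds their medians near 0. The order of the arrays thus restates the group difference. In 11 members the 3 -/- arrays lay wholly above the 3 +/+ arrays, against 8.13% of all probe sets, and in 3 wholly below, against 7.48%. None of the 11 passed in the fit without a block. Without the 3 arrays with higher Prl the members' median in stg was 0.26, and without stg-/- 3 as well it was 0.23.

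The cerebellum titles give -/- and +/+ arrays the same replicate numbers, and in stg the same-numbered arrays deviated together. With the replicate number as a block, 12 of the 29 members were called in stg, 10 higher and 2 lower, against 3.77% of all probe sets (1.55% higher and 2.22% lower). The 10 that rose were Pcp2, Pcp4, Rora, Ppp1r17, Gng13, Slc1a6, Rgs7bp, Ebf1, Dner and Fam107b, and the 2 that fell were Nefm and Dab1. The sample records were split here, by their order, into 2 runs, the first 20 and the other 16. The labels name no run or batch. In stg the numbers also go with these runs (arrays 1 and 2 in the first, array 3 in the second) and with the level of Xist, the X inactivation RNA. In lh array 3 of each genotype is likewise in the second run, and it alone reads high for Xist, 3384 in -/- and 2813 in +/+. What part the numbers, the runs and Xist each have in the stg result was not tested. With the run of records within a line as the block, 6 were called, Pcp2, Rora, Gng13, Slc1a6, Ebf1 and Dab1, against 2.55%.

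**Figure D2:**
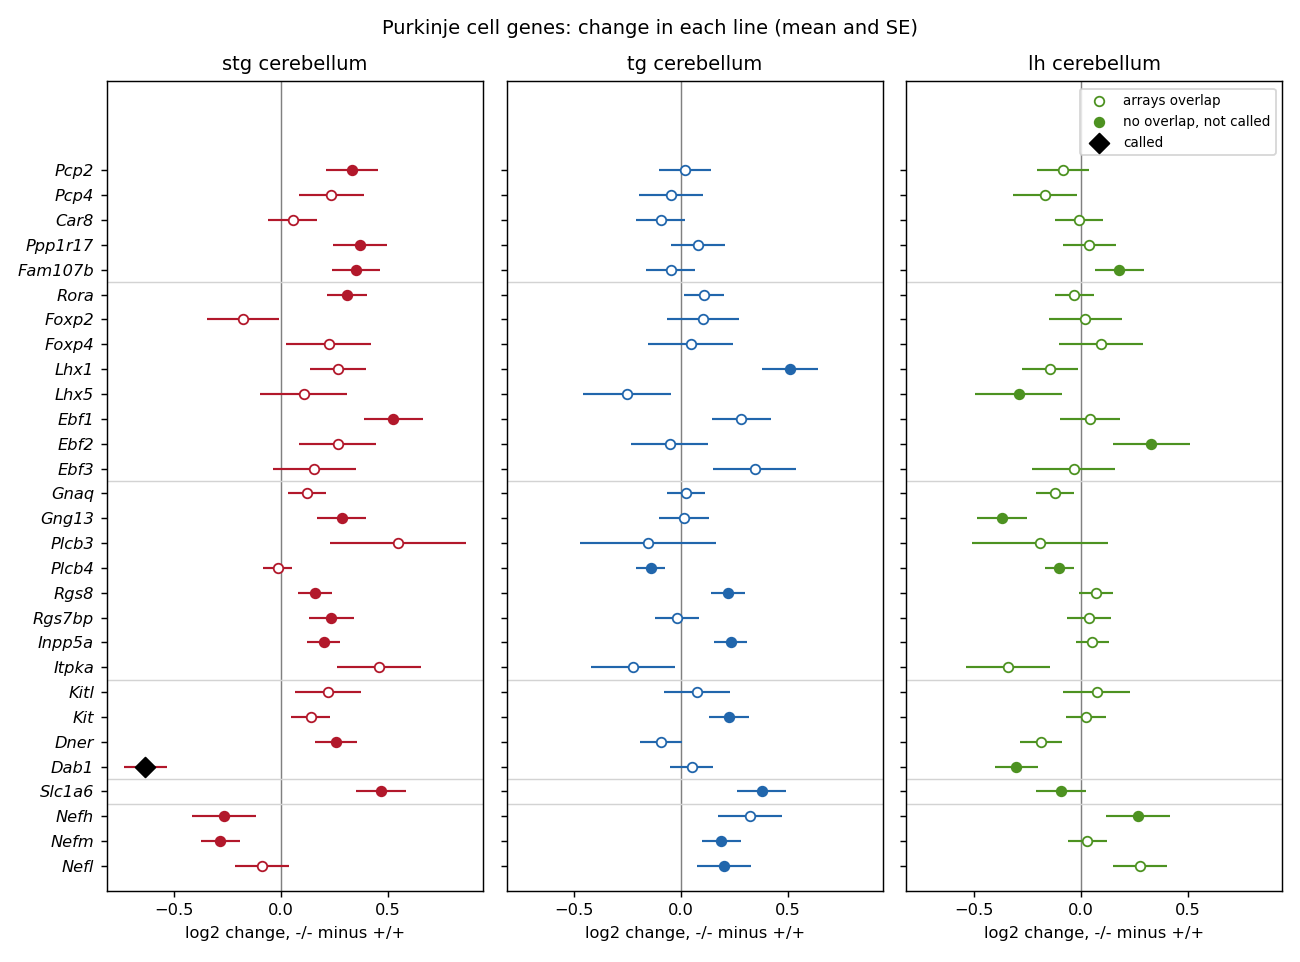
Log2 change of 29 Purkinje cell genes in the cerebellum, -/- minus +/+ (horizontal axis, point and SE from the fit without a block), in 3 panels for stg, tg and lh, with grey lines between groups of roles. Filled points are members whose 3 -/- and 3 +/+ arrays do not overlap, and the diamond is the 1 call, Dab1 in stg at -0.64; the stg points lie mostly to the right of 0, with a median of 0.22.

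The stretch of 250 bases before the annotated start is shown for 3 members that were higher without overlap in stg-/-, Slc1a6, Gng13 and Rora, and for Dab1, which was lower. Slc1a6 and Gng13 were picked because they hold a motif, the core bound by EBF factors. They are the 2 with it among the 10 of the 11 such members that the promoter table held, and Rora is 1 of the 8 without it. The sequences are RefSeq's for GRCm38.p6, all on the + strand, written 5' to 3', at chr10:78780246-78780495 for Slc1a6, chr17:25716922-25717171 for Gng13, chr9:68653536-68653785 for Rora and chr4:103619250-103619499 for Dab1. The stretches of Gng13 and Dab1 belong to 1 of 2 annotated starts each. Capitals mark matches to the core of the EBF motif, CCC and GGG with any 2 bases between them.
Slc1a6: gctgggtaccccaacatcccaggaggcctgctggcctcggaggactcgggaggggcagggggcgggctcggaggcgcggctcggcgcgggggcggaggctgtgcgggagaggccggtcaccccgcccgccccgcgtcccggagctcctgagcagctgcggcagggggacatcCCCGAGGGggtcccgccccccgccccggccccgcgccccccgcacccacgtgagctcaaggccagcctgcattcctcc
Gng13: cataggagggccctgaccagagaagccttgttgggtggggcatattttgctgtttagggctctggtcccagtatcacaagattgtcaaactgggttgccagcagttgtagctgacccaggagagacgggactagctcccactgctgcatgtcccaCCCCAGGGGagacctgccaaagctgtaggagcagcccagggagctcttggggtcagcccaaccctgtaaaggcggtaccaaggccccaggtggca
Rora: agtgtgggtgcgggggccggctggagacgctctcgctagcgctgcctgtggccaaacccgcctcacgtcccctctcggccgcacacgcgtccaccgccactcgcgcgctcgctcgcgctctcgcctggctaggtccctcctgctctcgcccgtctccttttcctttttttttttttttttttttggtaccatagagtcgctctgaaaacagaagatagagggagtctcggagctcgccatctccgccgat
Dab1: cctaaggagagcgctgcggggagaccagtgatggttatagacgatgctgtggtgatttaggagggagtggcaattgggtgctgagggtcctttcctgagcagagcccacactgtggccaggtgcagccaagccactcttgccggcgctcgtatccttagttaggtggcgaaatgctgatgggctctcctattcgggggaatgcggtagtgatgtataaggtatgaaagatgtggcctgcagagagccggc
The core reads the same way on both strands. Slc1a6 holds 1 match at -78 from the start, Gng13 holds 2 that overlap, beginning at -95 and -94, and the stretches of Rora and Dab1 hold none.

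The promoter table held 22 of the 30 members, with 33 windows of 300 bases from 250 before to 50 after a start. The EBF core was in 6 of these 33 windows (18.2%), those of Ebf3, Gng13, Itpka, Kit and Slc1a6, and in 13.7% of all 32851 windows. TAGGTCA, a motif of ROR factors such as Rora, was in 0 of the 33 and in 2.61% of all, searched on both strands. TAATTA, bound by LIM homeodomain factors, was in 1, that of Pcp2, and in 5.29% of all. TGTTTAC, a forkhead motif, was in 0 and in 3.65% of all, and TATAAA in 2, those of Kitl and Pcp2, and in 13.6% of all. No motif searched contains another. These are matches of letters in short windows, not sites.

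Markers of other cell types also differed between the same arrays. The summed signal of 13 granule cell markers was 34361 to 36789 over the stg-/- arrays and 37779.9 to 42360.5 over stg+/+, without overlap, and 9 of the 13 had a negative change. Gabra6, the GABA receptor subunit of granule cells, fell by 0.41 (limma adjusted p = 0.0129). The summed signal of the 30 Purkinje cell genes was 55011 to 58209.5 in stg-/- and 46154 to 52109 in stg+/+, also without overlap. The granule sum was lower without overlap in the other lines too, 37873 to 40331 in tg-/- and 40817 to 44774 in tg+/+, and 32974 to 34799 in lh-/- and 40362 to 44822 in lh+/+. The Purkinje sum overlapped there, 52470.1 to 57185 and 53982 to 55274 in tg and 48639 to 53147 and 51268 to 53857 in lh. No marker in either list was at 0. These are sums of linear signals, in which the brightest genes weigh most, such as Pcp2, Pcp4 and Car8 among the Purkinje cell genes. How often sums of other genes part without overlap was not counted. All 9 microglia markers tested and all 7 choroid plexus markers had positive changes in stg, with medians of 0.24 and 0.66 and none called. So they had in tg, with medians of 0.29 and 0.67, and in lh, with 0.36 and 1.11. There C1qc alone was called, higher in tg. Slc17a6, a glutamate transporter listed with the cerebellar nuclei, rose in stg by 0.88 (limma adjusted p = 0.00376), and Gfap, the filament of astrocytes, by 0.93 (0.0283). Each was the 1 call of its list in stg. In +/+ mice Slc17a6 had a mean of 145 in the cerebellum and 973 in the forebrain, so it is not particular to those nuclei. Of 5 markers of cerebellar nuclei, brainstem and spinal cord tested, 2 were above 0 in stg, with a median of -0.03. Of 10 Bergmann glia and astrocyte markers tested, 8 were above 0, with a median of 0.12. Over the mean of the 3 lines Slc17a6 and Gfap rose by 0.58 and 0.74 (0.000969 and 0.00187). What part these cell types play in the members' changes was not tested.

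The 5 genes of signature proteins, Pcp2, Pcp4, Car8, Ppp1r17 and Fam107b, all had positive changes in stg, with a median of 0.33, and 2 of the 5 in tg and in lh; none was called without the block. Pcp2 is a modulator of Gi and Go signalling that is made in Purkinje cells and retinal bipolar cells. It read 9756, 9341 and 8752 in stg-/- and 8234, 7989 and 6061 in stg+/+. All the -/- arrays were higher, and array 3 of stg+/+ was the lowest of the 18. The change was 0.33 (SE 0.12), with an adjusted p of 0.276 without the block and 0.0109 with it (limma). Ppp1r17, the G-substrate that inhibits protein phosphatases once cGMP-dependent kinase has phosphorylated it, read 2678, 2727 and 2775 in stg-/- and 2317, 2129.7 and 1901 in stg+/+, again without overlap. Its change was 0.37 (SE 0.13), with an adjusted p of 0.214 without the block and 0.0474 with it. Pcp4, a calmodulin-binding peptide, gave 0.24 (SE 0.15) with overlapping arrays and passed with the block (limma adjusted p = 0.0263). Car8, a carbonic anhydrase relative that lowers the affinity of the inositol trisphosphate receptor, gave 0.05 (SE 0.11) and overlapped as well. In tg and lh these 4 lay between -0.17 and 0.08, all overlapping.

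Fam107b had no overlap between genotypes in 2 lines. Its stg-/- arrays read 1709, 1283 and 1582 against 1241, 1063 and 1267 in stg+/+, and its lh-/- arrays 1593, 1488 and 1622 against 1405, 1271 and 1476. The -/- arrays were higher in both lines, with changes of 0.35 (SE 0.11) and 0.18 (SE 0.11). In tg the arrays overlapped, 1654, 1239.7 and 1439 and 1428, 1494 and 1529.7. None of the 3 changes passed (adjusted p = 0.187, 0.998 and 0.78), and in stg it passed with the replicate block (limma adjusted p = 0.0265). Fam107b was 1 of 6 members without overlap in the same direction in 2 lines, with Slc1a6, Plcb4, Rgs8, Inpp5a and Dab1, against 4.71% of all probe sets. Gng13, Nefh and Nefm were each without overlap in 2 lines in opposite directions, and Slc1a6 was also below without overlap in lh. How many of all probe sets had opposite directions was not counted.

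Slc1a6 encodes EAAT4, the glutamate transporter that takes up transmitter at Purkinje cell spines. In stg the -/- arrays read 1216, 1473 and 1591 and the +/+ arrays 891, 1149 and 1049, and in tg they read 1638, 1247 and 1391 and 1197, 1064 and 1014. The -/- arrays lay above the +/+ arrays in both lines. The changes were 0.47 (SE 0.12) and 0.38 (SE 0.12), with limma adjusted p of 0.0515 and 0.244 without the block and 0.0017 and 0.0125 with it. The same-numbered tg arrays, however, were not read as pairs. In lh the order turned: the -/- arrays read 1086, 1121 and 1064 and lay just below the +/+ arrays at 1158, 1169.7 and 1159.9, a change of -0.09 (SE 0.12). The stg call was gained in 4 of 18 fits that left out 1 array, those without stg-/- 1 (adjusted p = 0.0226), tg-/- 1 (0.0321), tg-/- 2 (0.0455) and stg+/+ 2 (0.0389).

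Of the 8 transcription factors tested, 7 had a positive change in stg, with a median of 0.24, 6 in tg and 4 in lh, and none was called without the block. They include Rora, the orphan nuclear receptor lost in staggerer mice and needed for Purkinje cell maturation. Rora read 2556, 2306 and 2366 in stg-/- and 1957, 2045 and 1829 in stg+/+, with no overlap. The change was 0.31 (SE 0.09), with a limma adjusted p of 0.134 without the block and 0.0143 with it. In tg and lh its arrays overlapped, with changes of 0.11 and -0.03. Of its 8 other probe sets tested, 1 rose in stg without a block, 1455165_at, with 0.36 (limma adjusted p = 0.0415), and it was singled out after its values were seen.

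Ebf1, a helix-loop-helix factor of the COE family, had the largest positive change in stg among the transcription factors. It read 422, 430.0 and 441 in stg-/- and 266, 301 and 331 in stg+/+, well apart. The change was 0.53 (SE 0.14), with a limma adjusted p of 0.0779 without the block and 0.0216 with it. Leaving out tg-/- 1, an array of another line that enters the shared spread, brought the stg adjusted p to 0.0216. In tg the -/- arrays read 245, 332 and 386 and the +/+ arrays 251, 243 and 285, with array 1 of tg-/- among the +/+ values and the other two above them. In lh they read 229, 243 and 267 and 265, 223 and 229 and overlapped, so the changes there were 0.28 (SE 0.14) and 0.04 (SE 0.14).

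The 3 other Ebf1 probe sets that passed the filter gave 0.51, 0.62 and 0.68 in stg, none called without the block. With it 1416302_at and 1448293_at passed (limma adjusted p = 0.0246 and 0.0127) and 1416301_a_at did not (0.0731). In tg the probe set 1448293_at rose by 1.02 (limma adjusted p = 0.00785), and over the mean of the 3 lines it rose by 0.64 (0.00159). 1416302_at rose over that mean by 0.43 (0.0193). These were singled out after their values were seen. With the mean of all its probe sets, Ebf1 rose in stg by 0.58 (0.00713) and in tg by 0.63 (0.0112). Over all members, 49 other probe sets of 19 genes were tested, and 38 had the sign of the chosen one in stg.

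Lhx1, a LIM homeodomain factor of early Purkinje differentiation, had its largest change in tg. Its tg-/- arrays read 353, 394 and 342 and its tg+/+ arrays 290.3, 239 and 235, without overlap. The change of 0.51 (SE 0.13) was the largest of the members in tg and did not pass (limma adjusted p = 0.112). With array weights it passed, at 0.56 (limma adjusted p = 0.012). The second Lhx1 probe set gave -0.38 in the same line, so the mean of both was 0.06. In stg the arrays read 380.0, 324 and 477 against 325, 334 and 308 and in lh 247, 236 and 279 against 293, 298 and 252. Both lines overlapped between genotypes, with changes of 0.27 and -0.14. Its relative Lhx5 was lower without overlap in lh, with -0.29 (SE 0.20), at the low signal of 64.6, 69.9 and 69.2 against 95.0, 82.8 and 74.4.

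The remaining factors did not pass in any line, with or without the block in stg. Ebf2, a COE factor that marks part of the Purkinje population, was higher without overlap in lh, 95.4, 102 and 80.4 against 75.4, 72.2 and 70.3, a change of 0.33 (SE 0.18). Ebf3 overlapped in every line, with 0.16 in stg, 0.35 in tg and -0.03 in lh. The forkhead repressors Foxp2 and Foxp4 overlapped in every line too, with changes between -0.18 and 0.22, both in stg. En1 was not tested, and its cerebellum signals overlapped between genotypes in each line.

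**Figure D3:**
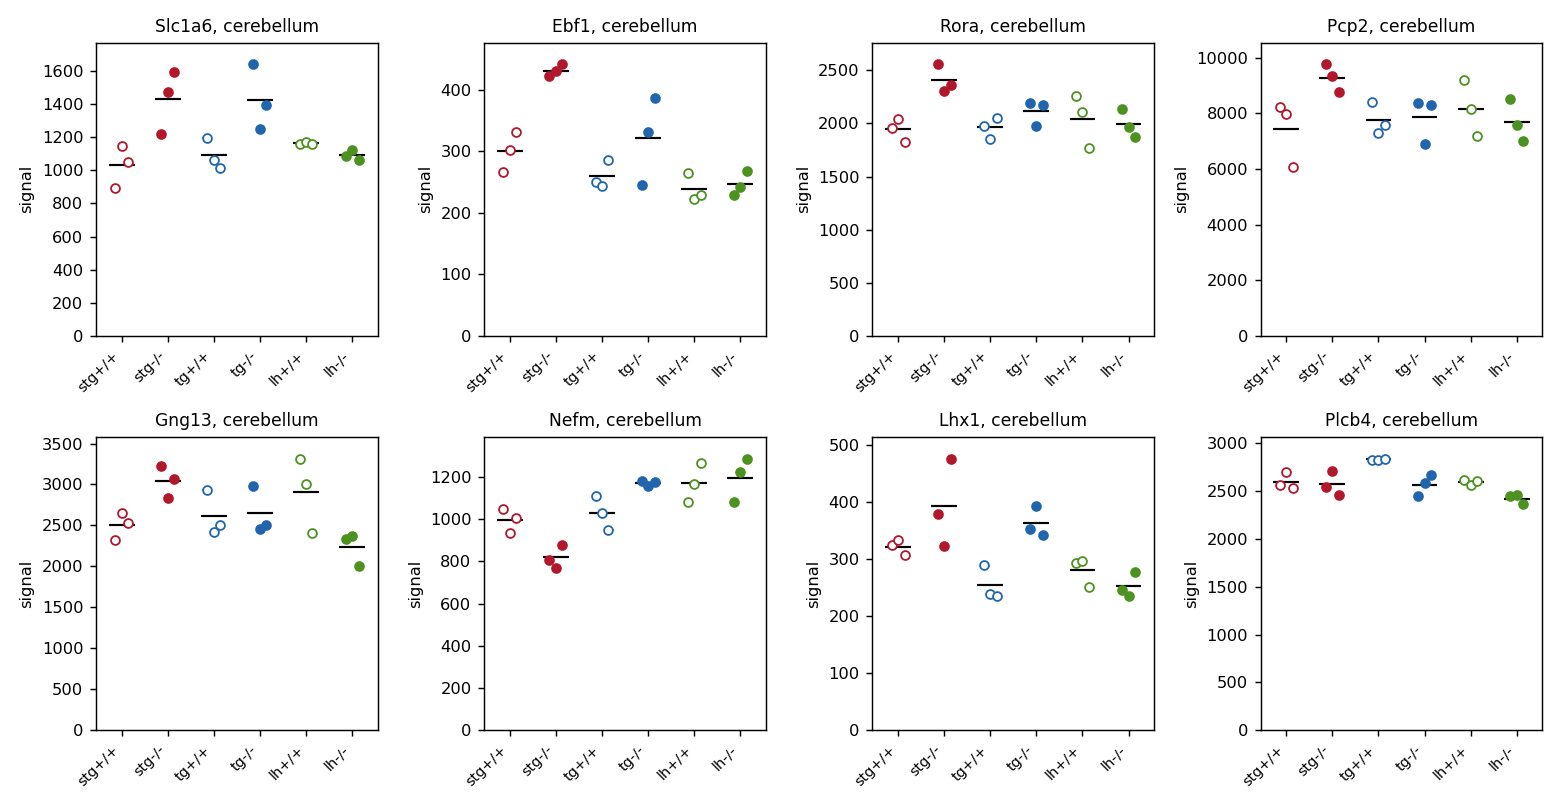
Signal (linear, vertical axes from 0) of 8 Purkinje cell genes on each cerebellum array of the 6 groups, open for +/+ and filled for -/-, with a bar at the mean of 3 arrays. Slc1a6, Ebf1, Rora, Pcp2 and Gng13 have all stg-/- arrays above stg+/+ and Nefm below; Lhx1 is higher in tg-/- and Plcb4 lower in tg-/- and lh-/-.

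The G protein and inositol phosphate genes carry the metabotropic glutamate signal. Of these 8 members, 7 had a positive change in stg, with a median of 0.22, and none was called without the block. In tg 4 of the 8 were above 0 and in lh 3. Gng13, a G protein gamma subunit, read 3229, 2834 and 3069.8 in stg-/- against 2325, 2649 and 2529.5 in stg+/+, and 2336, 2369.5 and 2006 in lh-/- against 3316, 3008 and 2409 in lh+/+. The arrays did not overlap in either line, and the direction was opposite: 0.28 (SE 0.12) in stg and -0.37 (SE 0.12) in lh. The limma adjusted p was 0.355 and 0.331 without the block and 0.0423 and 0.0275 with it. The same-numbered lh arrays, however, were not read as pairs. The F test among lines for Gng13 gave an adjusted p of 0.229 without the block and 0.0106 with it.

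With the replicate block that F test called 7 members, Pcp4, Gng13, Slc1a6, Dner, Nefh, Nefm and Dab1, against 1.78% of all probe sets. In tg and lh 1 of the 3 pairs of same-numbered arrays each correlated under 0.1, so the numbers were not read as pairs in those lines. The replicate block pairs them all the same, and its F test and its calls in tg and lh rest on that pairing. There the replicate block called 1 member each, Slc1a6 in tg, against 1.59%, and Gng13 in lh, against 0.781%. The block of line by run of records called Gng13 in lh, against 0.507%, and Gng13 and Dab1 among lines, against 0.762%.

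Plcb4, the phospholipase C that forms inositol trisphosphate in many Purkinje cells, was slightly lower in tg and lh. In tg the -/- arrays read 2446, 2587 and 2674 and the +/+ arrays 2828, 2829 and 2840.3, and in lh 2448, 2455 and 2366 and 2617, 2564 and 2611. The -/- arrays were lower without overlap in both lines. The changes were -0.14 (SE 0.07) and -0.10 (SE 0.07), neither called (limma adjusted p = 0.69 and 0.809). In stg the arrays overlapped, 2545, 2709 and 2460.0 and 2566, 2699 and 2529, with -0.02 (SE 0.07). Its 3 other probe sets tested gave values between 0.06 and 0.16 in stg, against the sign of the chosen one. They were all below 0 in tg, and in lh 1441531_at alone was above 0, at 0.06. The related Plcb3 was dim and scattered, with 0.55 (SE 0.32) in stg, the largest positive change of all members there, and overlapping arrays in every line.

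Rgs8, a regulator that speeds the shutdown of G proteins, was higher in stg and tg. It read 3054, 2880.2 and 2623 in stg-/- against 2600.4, 2512 and 2533 in stg+/+, and 3189, 3242 and 3619 in tg-/- against 2762, 2869 and 2984 in tg+/+. There was no overlap in either line. The changes were 0.16 (SE 0.08) and 0.22 (SE 0.08), and 0.07 (SE 0.08) in lh, where 2974, 2897 and 2779 overlapped 2912, 2598 and 2731. None passed (limma adjusted p = 0.484, 0.386 and 0.91). Rgs7bp, the membrane anchor of a related RGS family, was higher without overlap in stg, 1762, 1636 and 1483 against 1387, 1462 and 1292, a change of 0.24 (SE 0.10) that passed with the block (limma adjusted p = 0.0471) and not without it (0.415). Its other probe sets, 1437559_at and 1458534_at, gave 0.16 and 0.15 and passed in neither fit. For tg and lh the values were -0.02 and 0.04.

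Inpp5a, a phosphatase that ends the inositol trisphosphate signal, was also higher without overlap in stg and tg. It read 1816, 1813 and 1799 in stg-/- against 1521, 1528 and 1685 in stg+/+, and 2029, 1967 and 2077 in tg-/- against 1635, 1702 and 1835 in tg+/+. The changes were 0.20 (SE 0.08) and 0.23 (SE 0.08), neither called (limma adjusted p = 0.312 and 0.309), and in lh 1724, 1716 and 1853 overlapped 1668, 1607 and 1825. Itpka, the kinase that turns inositol trisphosphate into the tetrakisphosphate, gave 0.46 (SE 0.20) in stg, -0.23 (SE 0.20) in tg and -0.34 (SE 0.20) in lh, with overlapping arrays each time. Gnaq, the Gq alpha subunit itself, gave values between -0.12 and 0.12 and did not pass in any line.

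Among ligands, receptors and adaptors other than Dab1, Dner, a Notch ligand that Purkinje cells present to Bergmann glia, was higher without overlap in stg. It read 4807, 4591 and 4557 against 3938, 4005 and 3743, a change of 0.26 (SE 0.10), with a limma adjusted p of 0.312 without the block and 0.0158 with it. The second Dner probe set, 1456379_x_at, gave -0.03 in stg and did not pass with the block either (limma adjusted p = 0.898). For tg and lh the first gave -0.09 and -0.19, with overlap. Kit, the receptor of stem cell factor, which interneurons around Purkinje cells carry, was higher without overlap in tg, 893, 1014 and 977 against 836, 775 and 853, a change of 0.23 (SE 0.09) (adjusted p = 0.536). Of 9 markers of molecular layer interneurons and Golgi cells tested, 9 were above 0 in tg, with a median of 0.28. In lh 8 were, with 0.23, and in stg 4, with -0.04, none called in any line. What part these cells play in the Kit change was not tested. Kitl, the ligand, overlapped in every line, with changes between 0.07 and 0.22.

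The neurofilament genes, which encode the heavy, medium and light subunits of the axonal cytoskeleton and are not limited to Purkinje cells, all had negative changes in stg and positive ones in tg and lh. Nefm read 808, 769 and 879.5 in stg-/- against 1050.2, 936 and 1007 in stg+/+, with the -/- arrays all lower. Its change was -0.29 (SE 0.09), with a limma adjusted p of 0.175 without the block and 0.0303 with it. In tg Nefm read 1183, 1155 and 1178 against 1112, 1028 and 949.7, with the -/- arrays all higher. In lh its change was 0.03, with overlap. Nefh gave -0.27 in stg, 0.33 in tg and 0.27 in lh, without overlap in stg and lh. Nefl gave -0.09, 0.20 and 0.28, but its second probe set, 1454672_at, gave values nearer to none, -0.05, 0.02 and 0.03. The F test among lines gave Nefm an adjusted p of 0.3 and Nefh 0.51 without the block.

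Taken by line, tg cerebellum called none of the 29 members, against 0.574% of all probe sets. At an unadjusted p under 0.05 were 6 members and 1967 of the 27022 probe sets. There 19 members were above 0 with a median of 0.05, beside -0.007 for all. In 7 the -/- arrays lay wholly above, Lhx1, Slc1a6, Rgs8, Kit, Inpp5a, Nefm and Nefl, against 7.23% of all probe sets, and in 1, Plcb4, wholly below, against 6.81%. The members' median on the tg-/- arrays was 0.157, -0.013 and 0.086, so array 2 lay with the +/+ arrays. Without tg-/- 1 the median change in tg was -0.00899, and without tg-/- 2 it was 0.091.

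In lh cerebellum none of the 29 was called either, against 0.155% of all probe sets. At an unadjusted p under 0.05 were 3 members and 2058 of the 27022 probe sets. The changes were balanced, with 14 above 0 and a median of -0.007, beside 0.019 for all. In 3 members the -/- arrays lay wholly above, Ebf2, Fam107b and Nefh, against 7.21% of all probe sets, and in 5 wholly below, Lhx5, Gng13, Slc1a6, Plcb4 and Dab1, against 5.47%. On the lh-/- arrays the members' median was -0.050, -0.021 and -0.031. The 3 line contrasts share 1 estimate of the spread.

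**Figure D4:**
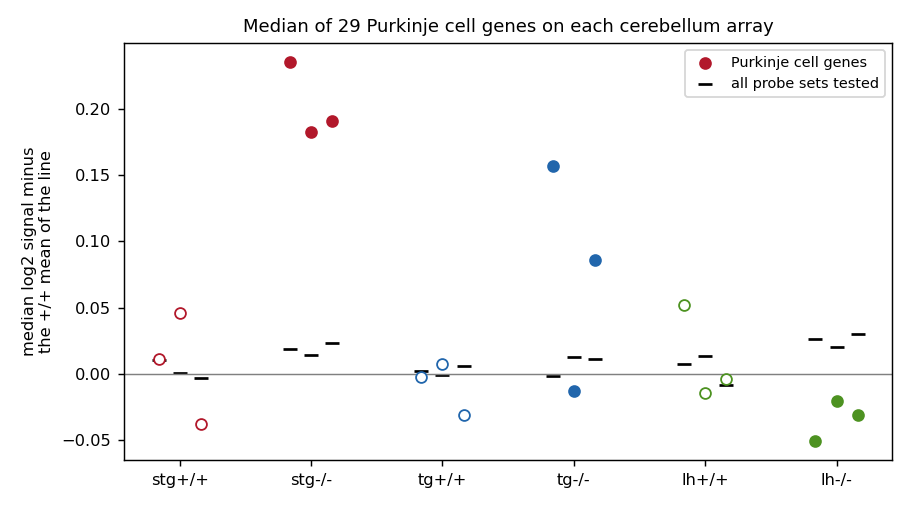
Median over 29 Purkinje cell genes of the log2 signal minus the +/+ mean of the line (vertical axis), for each cerebellum array of the 6 groups, open for +/+ and filled for -/-, with a dash for the median of all probe sets tested. The 3 stg-/- arrays, 0.236, 0.182 and 0.191, lie above the stg+/+ arrays, the tg-/- arrays are spread, and the lh-/- arrays lie below 0. The +/+ arrays are held near 0, as they make up the mean that is subtracted.

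Over the mean of the 3 lines 11 of the 29 members had an unadjusted p under 0.05, as had 3312 of the 27022 probe sets. Next to Dab1 the lowest limma adjusted p were those of Slc1a6, 0.0589, Inpp5a, 0.0678, Ebf1, 0.0807, and Rgs8, 0.109. Their mean changes were 0.25, 0.16, 0.28 and 0.15. With the replicate block these 4 rose and Dab1 fell, 5 of 29 called, against 4.58% of all probe sets. That fit also pairs the tg and lh arrays, whose numbers were not read as pairs. The block of line by run of records called the same 5, against 3.66%.

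Other lists of genes bear on the same cells. Of 20 genes of the metabotropic receptor pathway and the parallel fibre synapse, 14 were measured and 9 of these had a positive change in stg, with a median of 0.12. The 1 that was called fell: Dlgap1, a scaffold of the postsynaptic density, by 0.63 (limma adjusted p = 0.0162). Cbln1, the parallel fibre organiser that binds the delta glutamate receptor, was -0.07, and Homer3, a scaffold of metabotropic receptors in Purkinje cells, 0.19. In tg and lh none of the 14 was called, and 6 had a positive change in each. The other 6 genes were not analysed here.

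Of 25 other genes used as Purkinje cell markers or known in these cells, 14 were tested and 11 had a positive change in stg, with a median of 0.20 and none called. Calb1, calbindin, the calcium buffer that fills Purkinje cells, gave 0.33 and Cacna1g, a T-type calcium channel, 0.45. Pvalb, parvalbumin, which interneurons also hold, gave 0.33. With the replicate block these 3 rose, with limma adjusted p of 0.0148, 0.0075 and 0.0343. In tg 10 of the 14 were above 0 and in lh 4.

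In +/+ mice most members were higher in the cerebellum than in the forebrain, which has no Purkinje cells. Of the 24 members that passed the filter in both tissues, 20 were called, against 57.1% of all probe sets that did so, 16 higher and 4 lower, against 32.3% and 24.8%. Their median difference was 1.33 beside 0.062. The probe set of each member was picked by its cerebellum signal, which favours the cerebellum, and the probe sets set beside them were not picked so. The comparison with all probe sets is therefore a description and not a test. In 13 of the 24 all 9 cerebellum arrays lay above all 9 forebrain arrays, against 10.9% of those probe sets, and in 4 all lay below, against 10%. Lhx1, Lhx5, Ppp1r17, Plcb3 and Ebf2 entered the fit only through their cerebellum arrays, so that they had to be higher there. With these 5, 25 of 29 were called, against 58.2% of all probe sets in the fit, and the 5 add no support. Pcp2 ran from 6061 to 9191, with a median of 7989, on the cerebellum arrays, and from 12.7 to 202, with a median of 20.6, in the forebrain. The difference was 7.88 (SE 0.38) on the log2 scale (limma adjusted p = 8.64e-18), and 6.88 with a constant of 32. A single forebrain array read 202, far above the others, and still far below every cerebellum array.

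The next members that passed in both tissues were Car8 with 5.75 (SE 0.17), Slc1a6 with 4.08 (SE 0.12) and Fam107b with 3.34 (SE 0.09). Car8 had a median of 7403 in the cerebellum and 128 in the forebrain. Slc1a6 had medians of 1149 and 65.9 and Fam107b 1405 and 123. Of the members too dim for the forebrain filter, Ppp1r17 lay between 1901 and 2545 in the cerebellum and between 1.77 and 40.4 in the forebrain. Lhx1 lay between 235 and 334 and between 8.41 and 40.6. The log2 difference of such a gene moves with the added constant, and that of Ppp1r17 was 6.85 with a constant of 1 and 5.41 with 32. Car8, Slc1a6 and Fam107b did not overlap between the tissues. Neither did Ppp1r17 and Lhx1, but they entered the fit only through the cerebellum, so this adds no support. Plcb3, which entered in the same way, did overlap, from 39.6 up in the cerebellum and up to 47.7 in the forebrain.

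At the other end stood genes that other neurons use as well. Foxp2, which striatal and cortical neurons also express, ran from 91.9 to 201, with a median of 125, in the cerebellum, and from 272 to 439, with a median of 325, in the forebrain. The cerebellum was lower without overlap, with a difference of -1.43 (SE 0.09) (limma adjusted p = 3.21e-15). Nefm and Itpka were lower there too, with -0.95 and -0.84, and so was Nefl, with a median of 1669 against 3245, again without overlap. Nefh, -0.14, and Gnaq, -0.04, did not pass, and neither did Foxp4, 0.22, and Rgs7bp, 0.05. Dab1 was slightly higher in the cerebellum, 0.20 (SE 0.05) (limma adjusted p = 0.00143), with arrays that overlapped, 348 to 473 and 314 to 387. This contrast uses the same +/+ cerebellum arrays as the line contrasts. Its forebrain arrays stg+/+ 1, stg+/+ 2 and lh+/+ 3 read high for Prl, at 2546, 2086 and 6052.

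**Figure D5:**
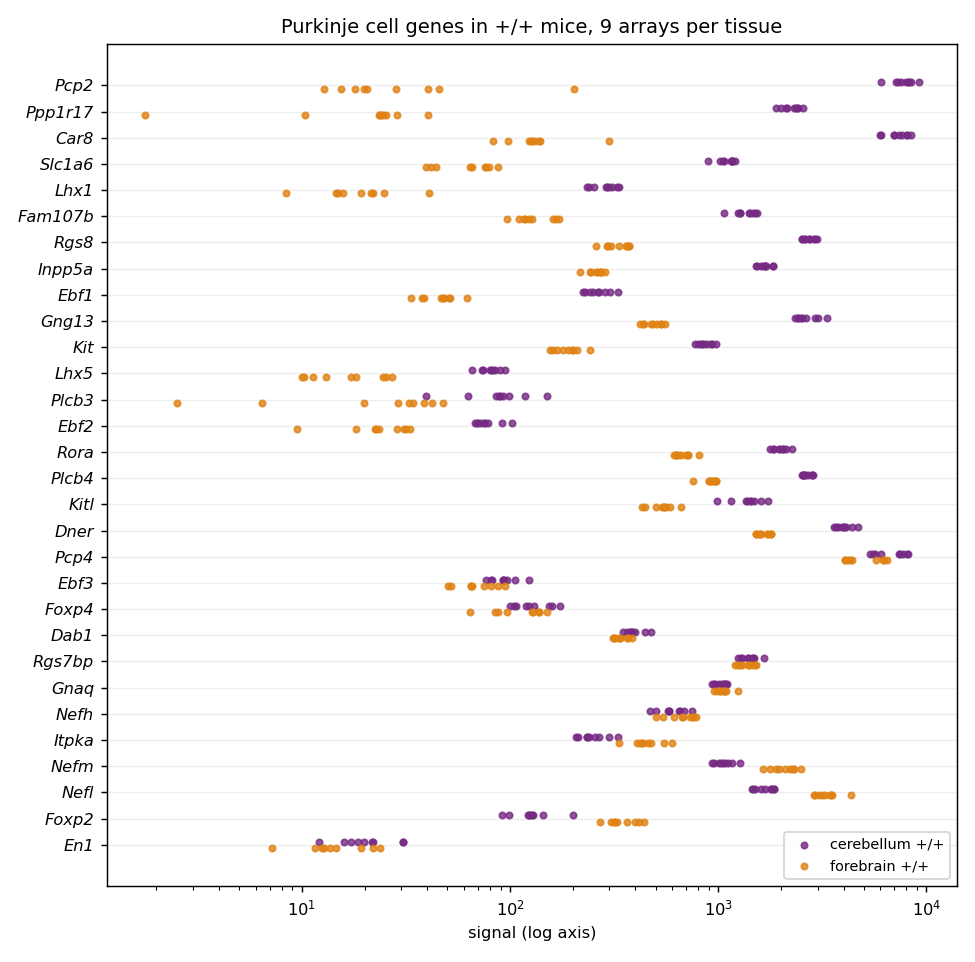
Signal (horizontal log axis) of the 30 Purkinje cell genes on the 9 +/+ cerebellum arrays (purple) and the 9 +/+ forebrain arrays (orange), ordered by the difference, with the untested En1 at the bottom. The tissues stand widely apart for Pcp2, Ppp1r17 and Car8, overlap for 9 genes, and are in the opposite order for Itpka, Nefm, Nefl and Foxp2.

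The contrast between genotypes in the forebrain called no member in any line, against 0.0111%, 0.189% and 0.0148% of all probe sets in stg, tg and lh. In each line 1 of 24 had an unadjusted p under 0.05 (Itpka in stg, Pcp2 in tg and Fam107b in lh). So had 690, 1536 and 1045 of the 27022 probe sets. The members' medians there were -0.06 in stg, 0.03 in tg and -0.08 in lh. Among the 3 +/+ groups of the cerebellum no member was called by the F test (lowest limma adjusted p = 0.402, Foxp2), against 0.881% of all probe sets. In that test 3 members and 2749 of the 27022 probe sets had an unadjusted p under 0.05. Over the 9 +/+ cerebellum arrays the coefficient of variation of the signal ran from 4.73% for Plcb4 to 33.8% for Plcb3, with a median of 11.4%.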

How the data were processed

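The deposited values were signal intensities, 1 per probe set and array, and the steps by which the authors derived them are not given in the sources used here. Before logs, 2.98, the 10th percentile of all values, was added. The 64 control probe sets were left out, and probe sets had to pass the 40th percentile of the mean log2 value in a fit. Of the 45101 probe sets, 34958 had 1 symbol in the probe table. limma 3.58.1 in R 4.3.3 fitted a mean per group with an intensity trend: 18 arrays of a tissue for the line contrasts, all 36 for the tissue contrasts. The scripts were tested on simulated data. The number of arrays limits the precision. Detection calls were not used.

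The members and lists were chosen with earlier results of these data known. All members are named. Values on every array are given for those called in the cerebellum or without overlap in the same direction in 2 lines, filled up to 8 by the smallest p of the mean effect, and for others where a sentence turns on them, which were chosen after their values were seen.

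Same-numbered -/- and +/+ cerebellum arrays, by the numbers in the titles, correlated in their deviations from the group means by 0.156, 0.188 and 0.380 in stg, and were therefore treated as pairs, on the evidence of the data alone. In tg they correlated by 0.292, 0.0404 and 0.244, and in lh by 0.225, 0.0948 and 0.333. Apart from 0.0404 and 0.0948, under the limit of 0.1, these lie above the 0.156 and 0.188 of stg. Pairing is therefore not shown to be particular to stg, and the limit alone parts the lines. Alternatives were other filters, constants, scaling, weights, probe sets and blocks, each line alone, and arrays left out.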

Additional observations from a re-analysis of the deposited data

Results flagged for a closer look

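The change of Dab1 in stg differed between the tissues: cerebellum minus forebrain effect -0.62 on the log2 scale (SE 0.13, limma adjusted p = 0.0246), with -0.64 in the cerebellum and -0.02 in the forebrain. All 3 stg-/- cerebellum arrays were below all 3 stg+/+ arrays, and the forebrain arrays overlapped. Forebrain arrays stg+/+ 1 and 2 read high for Gh and Prl. No cause was tested. Groups of 3 arrays were not searched for outlying arrays.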

How the results depend on the processing

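The limits are 3 arrays a group, a signal with no stated processing, and no detection limit for dim members. The number of members called in stg cerebellum, 1, was 2 with the filter at the 60th percentile, with quantile normalization and with a constant of 32, 3 with array weights and with the mean of all probe sets of a gene, 12 with the replicate block, 6 with line by run of records as a block, and 0 without the 3 arrays with higher Prl, or the 4 with higher Prl or Gh, both chosen after seeing the data. The cause of these shifts was not tested. Outside the main fits and the blocks, the share of all probe sets called was not recorded. This holds for every other setting in this section, also with 1 array left out. Those counts may move with that share and are not read as results about the members. In tg, 0 became 1 with array weights, with the mean of all probe sets and with the replicate block, and in lh 1 with either block. Over the mean of the 3 lines, 1 became 3 with the 60th percentile and with quantile normalization, 5 with array weights and with either block, 4 with the mean of all probe sets and 0 without the 3 or the 4 arrays. The F test among lines called 7 with the replicate block and 2 with the block of line by run. The tissue test in stg called 0 with the mean of all probe sets (Dab1 -0.50, limma adjusted p = 0.0944), and that in tg 1 with array weights. The median change in lh became 0.0397 with quantile normalization and 0.0396 with the mean of all probe sets, and in tg 0.011 with array weights. Signs turned for Dab1 in tg (-0.0016, array weights), Plcb4 in stg (0.074, mean of all probe sets; 0.022 and 0.054, without the 3 and the 4 arrays) and Gnaq between tissues (0.0083, mean of all probe sets), none of them called.

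With 1 array left out, the stg count ran from 1 to 3 and the count over the mean of the lines from 1 to 2: 2 in stg without stg-/- 1, stg+/+ 2 or tg-/- 2 and 3 without tg-/- 1, and 2 over the lines without each of the same 4. The tissue test in stg ran from 0 to 1. The median change ran from 0.183 to 0.232 in stg, from -0.00899 to 0.09058 in tg and from -0.060 to 0.012 in lh. Uncalled changes that crossed 0 were Plcb4 in stg (-0.054 to 0.016), Fam107b in tg (-0.151 to 0.057), Dab1 in tg (-0.028 to 0.092) and Ebf1 in lh (-0.017 to 0.118). The 25 members called between tissues in +/+ mice ran from 21 to 25 over the other settings, 25 in each fit with 1 array left out.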

Other observations

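Purkinje cells fall into parasagittal stripes that differ in the enzyme aldolase C, also called zebrin. Of genes of the zebrin-positive stripes, Aldoc gave 0.20, Plcb3 0.55 and Slc1a6 0.47 in stg cerebellum, none called without the block. In tg the same 3 gave 0.02, -0.15 and 0.38, and in lh -0.16, -0.19 and -0.09. Of genes of the zebrin-negative stripes, Plcb4 gave -0.02, Ebf2 0.26 and Nefh -0.27 in stg, in tg -0.14, -0.05 and 0.33, and in lh -0.10, 0.33 and 0.27. The difference between the 2 kinds of stripe was not tested.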
